A study of Homo sapiens with 15 samples.

Results

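Among the anchors of the H3K27ac chromatin loops of LNCaP cells, 235 carried 50 or more loops each, and these hub anchors are described here. An anchor is the 1 kb window at one end of a loop, and the deposited tables list every loop as a pair of anchors. A hub was any anchor present in at least 50 of the 296326 rows of the H3K27ac loop set, so the members were chosen by the number of loops called in these same data. That number is therefore a description of the hubs and not a finding. The 235 hubs were 0.164% of the 143648 anchors of the set, and 14779 loops, 4.99% of the set, had a hub at 1 end or both.

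LNCaP is a human prostate cancer line that depends on androgen. The cells were kept for 3 days in phenol-red-free medium with charcoal-stripped serum, which removes steroid hormones, and then received 10 nM of dihydrotestosterone (DHT), an androgen, over 30 m, over 4 h, over 16 h or over 72 h. The untreated group, called 0 m, carries the label EtOH, the vehicle. HiChIP, which joins chromatin contact mapping to immunoprecipitation of a histone mark, was made at the 5 time points with H3K27ac in 2 replicates and with H3K4me3 in 1 replicate, 15 samples in all. Since a single established line was used throughout, the values describe that line.

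H3K27ac, acetylation of lysine 27 of histone H3, marks active promoters and active enhancers, whereas H3K4me3, trimethylation of lysine 4, marks promoters that are in use. A HiChIP loop is a pair of places that were ligated to each other more often than their distance predicts, with the mark on at least 1 of them. An anchor with many loops, often called a hub, is a place that meets many partners over the cell population. In a single cell it need not meet them at once, and a place with more of the mark is pulled down more often, so that the number of loops called also follows the strength of the mark. In prostate cells the androgen receptor acts mostly at enhancers far from promoters, through cis-regulatory elements (CREs) that loop to their genes.

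For each loop there was a single value per mark and time. Replicates were therefore not separate, no value has a replicate error and no test between time points was possible. Every interval below is an exact 95% interval on the recovered read pairs and covers counting error only. Where a run of 5 values is given for a hub or loop, it follows the order of the times from 0 m to 72 h. The 10 tables rested on 2153262 to 10675614 read pairs each over the different loops, of which hub loops held 53719 to 286948, with H3K4me3 at 4 h the deepest. At the promoters of the lists of cell type markers, all 9 luminal prostate genes had an H3K27ac loop, with a median of 12 loops at the best anchor, beside 14101 of all 20149 coding genes with a symbol, with a median of 4. The same held for 1 of 4 basal genes, 3 of 5 fibroblast and muscle genes, 2 of 4 blood genes and 0 of 4 neuroendocrine genes.

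The letters of 7 hubs are shown, since the results below turn on them. They are 3 promoter hubs with the most loops (ZNF608 at chr5:124082381-124082620, CITED2 at chr6:139697381-139697620 and PPP3CA at chr4:102267381-102267620), the 2 hubs with the most loops and hardly any H3K4me3 loop (in an intron of NAALADL2 at chr3:175207381-175207620, and in a desert 1118 kb from the start of SLC16A7 at chr12:61107381-61107620), and the 2 hubs joined by the strongest loop between hubs (in TBX3 at chr12:115112641-115112880, and 523 kb from the start of MED13L at chr12:116192381-116192620). Each is the stretch of 240 bases free of annotated exons nearest the middle of the anchor, on the plus strand of GRCh37 (hg19), 5′ to 3′. Capitals mark CG dinucleotides (CpG), which are dense at many promoters and sparse elsewhere.
ZNF608 promoter hub: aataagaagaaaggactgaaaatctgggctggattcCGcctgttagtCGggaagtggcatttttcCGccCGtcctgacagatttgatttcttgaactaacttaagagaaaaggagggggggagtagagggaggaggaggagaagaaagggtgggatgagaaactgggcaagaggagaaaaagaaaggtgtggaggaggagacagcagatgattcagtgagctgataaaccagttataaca
CITED2 promoter hub: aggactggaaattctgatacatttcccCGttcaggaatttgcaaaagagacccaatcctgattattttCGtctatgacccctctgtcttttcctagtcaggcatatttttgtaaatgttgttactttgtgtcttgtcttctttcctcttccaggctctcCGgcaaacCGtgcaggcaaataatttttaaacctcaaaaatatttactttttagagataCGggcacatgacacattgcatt
PPP3CA promoter hub: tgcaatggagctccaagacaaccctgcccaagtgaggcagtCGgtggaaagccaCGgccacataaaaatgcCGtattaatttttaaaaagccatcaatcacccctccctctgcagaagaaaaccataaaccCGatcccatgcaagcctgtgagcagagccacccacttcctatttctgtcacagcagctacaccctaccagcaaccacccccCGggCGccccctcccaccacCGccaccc
NAALADL2 intron hub: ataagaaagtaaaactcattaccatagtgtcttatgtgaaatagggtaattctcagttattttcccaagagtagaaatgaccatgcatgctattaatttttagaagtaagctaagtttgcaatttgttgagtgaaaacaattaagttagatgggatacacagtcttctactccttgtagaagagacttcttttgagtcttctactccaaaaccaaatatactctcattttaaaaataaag
SLC16A7 desert hub: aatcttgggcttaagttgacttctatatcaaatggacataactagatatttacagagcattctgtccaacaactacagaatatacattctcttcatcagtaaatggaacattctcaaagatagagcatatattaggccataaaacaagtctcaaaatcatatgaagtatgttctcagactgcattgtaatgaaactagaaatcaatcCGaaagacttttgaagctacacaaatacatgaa
TBX3 hub: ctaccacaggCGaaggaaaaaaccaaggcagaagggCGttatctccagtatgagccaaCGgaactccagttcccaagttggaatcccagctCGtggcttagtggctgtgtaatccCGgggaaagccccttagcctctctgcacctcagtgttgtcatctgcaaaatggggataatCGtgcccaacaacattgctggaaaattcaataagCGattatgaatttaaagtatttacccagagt
MED13L desert hub: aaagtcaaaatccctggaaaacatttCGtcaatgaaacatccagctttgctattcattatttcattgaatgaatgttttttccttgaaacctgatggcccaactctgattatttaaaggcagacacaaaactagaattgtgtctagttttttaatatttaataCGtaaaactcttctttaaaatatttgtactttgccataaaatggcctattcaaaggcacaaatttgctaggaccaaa

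The printed stretch of the NAALADL2 intron hub held 0 CpG and was 30.8% G or C, and that of the SLC16A7 desert hub held 1 CpG and was 32.1% G or C. The stretches of the PPP3CA and TBX3 hubs held 7 CpG each. Over the whole 1 kb anchor the PPP3CA hub held 81 CpG and the TBX3 hub 78, against 5 for NAALADL2 and 7 for SLC16A7. Over all hubs the median was 22 CpG and 47.8% GC, beside 9 CpG and 42.3% over all anchors of the set. Promoter hubs had a median of 43 CpG, and promoter anchors with 20 to 49 loops had 28. The hubs away from promoters had a median of 11.5 CpG, close to the 11 of anchors with 20 to 49 loops away from promoters. Hubs away from promoters thus matched that class, whose median is also above the 9 of the whole set, while promoter hubs exceeded theirs.

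MboI, the enzyme that cut the chromatin, cuts at GATC. The median hub anchor held 3 such sites, as did the median anchor of the set, and no 5 kb bin around a hub lacked one, with 5 to 26 sites a bin. The letters AGAACA on either strand form each arm of the androgen receptor motif. They were present in 46.8% of hub anchors (40.3 to 53.4%) and in 55.1% of all anchors. Anchors with 20 to 49 loops had 49.7%, within the hub interval. Forkhead letters, TGTTTAC or TGTTTGC on either strand, were present in 29.4% of hub anchors and in 27.8% of all anchors. Away from promoters they were present in 35.0% of hubs (26.5 to 44.2%). The 32.8% of anchors with 20 to 49 loops away from promoters lay within that interval. The ETS letters CCGGAAGT were present in 4 hub anchors, 1.70% (0.47 to 4.30%), in 2.50% of anchors with 20 to 49 loops and in 0.70% of all anchors, so that hubs could not be told from either. These are matches of letters only, and short words occur often in any 1 kb.

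The loops were spread very unevenly over the anchors, as the plot of loops per anchor shows. The median anchor of the set had 2 loops and the median hub had 59. Above the threshold lay 13 anchors with 50 loops and 18 with 51, and just below it lay 25 with 49 and 23 with 48. Of the hubs, 37 had 75 loops or more and 7 had 100 or more. No hub lay within 5 kb of another, and in all 235 no 2 partners lay in touching bins, nearby loops having been merged by the authors. Hubs were found most often on chromosomes 5 (21 hubs), 3 (20), 10 (20), 8 (19) and 17 (15). The share of all anchors on each chromosome is not given, so no excess can be read from these counts.

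**Figure D1:**
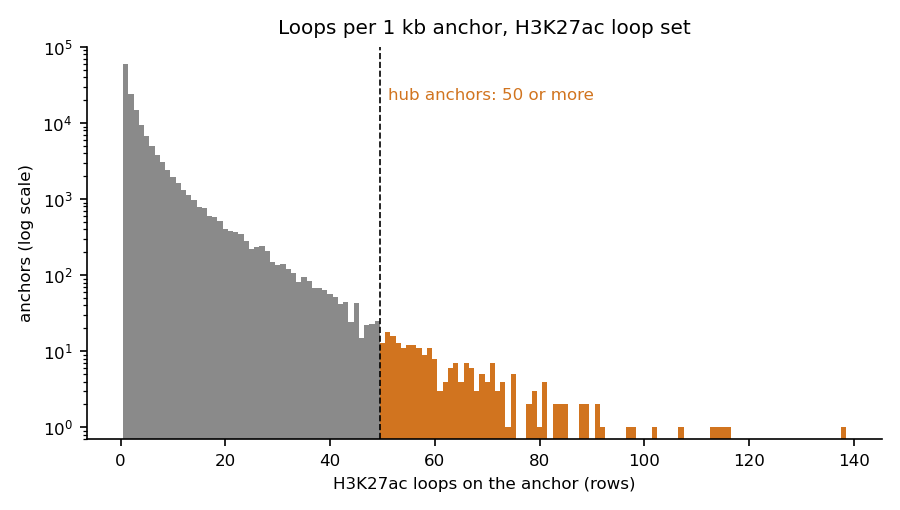
Number of anchors (y axis, log scale) with each number of H3K27ac loops (x axis), over all 143648 anchors, with the 235 hub anchors in orange to the right of the dashed line. The counts run on without a gap across the threshold of 50 loops, from 25 anchors with 49 loops to 13 with 50, up to 138 loops.

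The share of hubs on promoters depended on how wide a promoter was taken to be. A promoter, here the 5 kb centred on the annotated start of a coding gene, was overlapped by 115 of 235 hubs, 48.9% (exact 95% interval 42.4 to 55.5%). With 1000 bp on either side of the start the share was 31.1%, and with the starts of all annotated genes 59.6%. Anchors with 20 to 49 loops overlapped the wider window in 46.2% (44.7 to 47.7%), which is within that interval, and the narrower one in 31.2%, whereas anchors with 5 to 19 loops overlapped the wider one in 19.1% and anchors with 1 to 4 loops in 5.33%. The promoter share was therefore higher with more loops up to about 20 and was not detectably different above that. The hub promoters belonged to 140 genes, and 23 hubs lay over the promoters of more than 1 gene.

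Of the 120 other hubs, 59 were intergenic, 41 intronic, and 20 lay in an exon. The nearest start of a coding gene was within 50 kb for 45 of them and over 100 kb away for 60. A window of the same 5 kb width, placed around long noncoding RNA starts, was overlapped by 22. Among these 22 was the hub near FRMD8, which overlaps that window of NEAT1, the RNA that builds nuclear paraspeckles. These 2 kinds of hub, on promoters and away from them, are followed separately below.

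Hub loops reached far. Their median length was 395 kb, beside 120 kb over loops with no hub and 210 kb over loops of anchors with 20 to 49 loops. A length of 1 Mb or more was found for 9.94% of hub loops and for 1.53% of the others, and a length under 20 kb for 2.27% and 14.9%. Since partners lay in separate bins, an anchor with 50 of them has to reach some distance, and length is not independent of the rule. A promoter lay at the other end of 1618 hub loops, 10.9%, beside 17.9% for loops of anchors with 20 to 49 loops, and the partner of a hub was most often an anchor with few loops of its own (median over hubs 5).

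The few short loops of a hub held a large part of its contact. Contact here is the deposited contact frequency, summed over the loops of an anchor. Loops under 20 kb held 25.3% of the H3K27ac contact of hub loops at 0 m and 38.5% at 16 h, the highest share of the 5 times. Both were below the shares of loops with no hub, 45.5% and 55.5%, and of loops of anchors with 20 to 49 loops, 33.9% and 45.8%. At 16 h the strongest loop was shorter than 20 kb in 194 of 235 hubs and 100 kb or longer in 25. A 16 h change of a hub's summed contact is therefore given below also without loops under 20 kb where this moves it by over 1.5 times or takes its interval across 0, an alternative chosen for single hubs after the data were seen.

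The 12 hubs with the most loops comprised 7 on promoters and 5 away from them. The ZNF608 promoter, of a zinc finger protein, had 138 loops, 60 to lower and 78 to higher coordinates, with a median length of 617.5 kb. An anchor in an exon of SEPTIN9, a cytoskeletal septin, had 116 loops. The promoter of CITED2, which binds the coactivators p300 and CBP, had 115, and that of PPP3CA, the catalytic subunit of calcineurin, had 114.

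The next was the hub in an intron of NAALADL2, with 113 loops, 1051 kb from the start of that gene. The SLC16A7 desert hub (chr12:61107001-61108000) followed with 107 loops. The promoter of IRX5, an Iroquois homeobox factor, had 102. The list was completed by an intergenic hub 487 kb from the start of ZNF608 (98 loops), the promoters of ZMYND8, a reader of acetylated chromatin (97), and of BRD2, a bromodomain protein, with HLA-DMA, which loads peptides on class II molecules (92), an intergenic hub 499 kb from the start of ZPLD1 (91), and the MYC promoter (91).

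**Figure D2:**
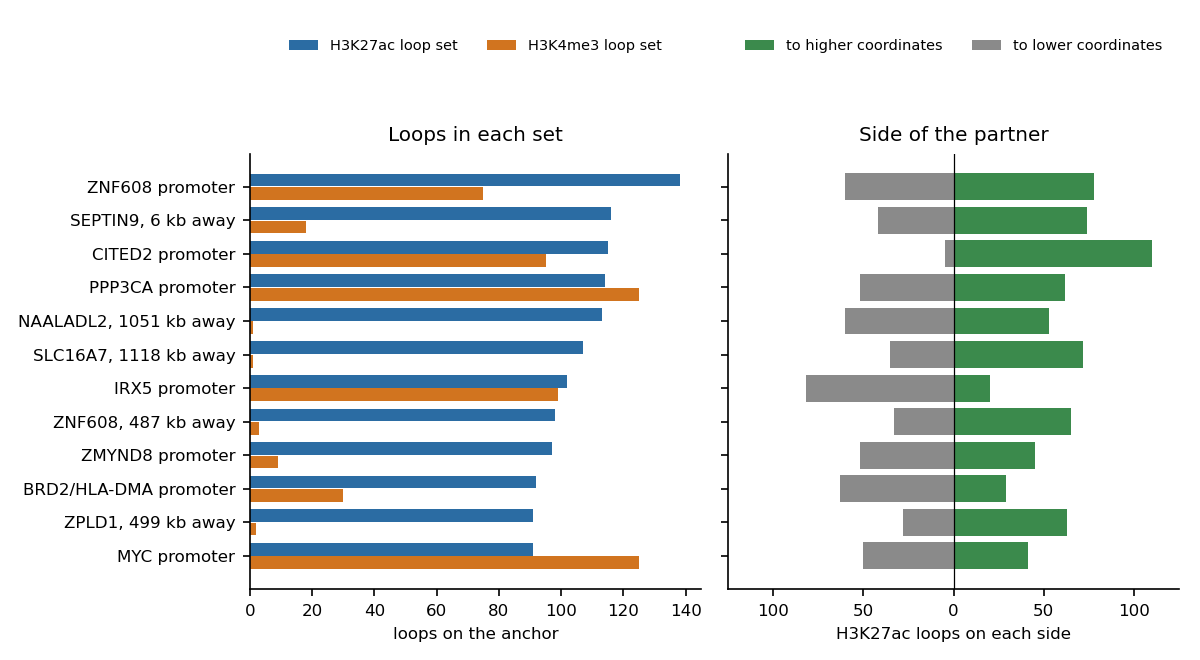
The 12 hubs with the most loops. Left, loops on the anchor in the H3K27ac set (blue) and the H3K4me3 set (orange). Right, H3K27ac loops to lower (grey) and to higher coordinates (green). The hubs in NAALADL2 and near SLC16A7 have 113 and 107 H3K27ac loops and 1 H3K4me3 loop each, and CITED2 has 110 of 115 loops on 1 side.

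Partners lay on both sides of most hubs, and 17 hubs had over 90% of their loops on a single side. All loops of the hub at the promoter of BCL6, a transcriptional repressor, ran to the same side. The CITED2 promoter had 95.7% on 1 side, the ID2 promoter, of an inhibitor of helix-loop-helix factors, had 97.3%, and the hub named for ZFP36L1, an RNA-binding protein, had 98.1%.

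The number of partner promoters varied widely, with a median share of 6.67% of a hub's loops. The NEAT1 hub met 42 partner promoters, or 61 genes, the most of all hubs. The BRD2 and HLA-DMA promoter hub met 32, with 51 genes, in the major histocompatibility region. The promoter of U2AF2, a splicing factor subunit, met 31. In contrast, the hubs at the ZNF608, CITED2 and MYC promoters and in NAALADL2 met 0 partner promoters. A hub with over 90 loops thus did not need a coding promoter among its partners.

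Of the 235 hubs, 116 had a loop to another hub and 119 did not. The 107 loops between hubs had a median length of 490 kb and reached 2770 kb. They joined 2 promoter hubs in 13 cases, a promoter hub and another hub in 41, and 2 hubs away from promoters in 53. They formed 43 groups, of which 20 held at least 3 hubs. The largest lay in and near NAALADL2, where 6 hubs over 1151 kb, of which 5 lay in introns of the gene, were joined by 15 loops. Around ZNF608, 4 hubs over 486 kb shared 5 loops, and 3 intergenic hubs between KLF4, a Krüppel-like transcription factor, and ACTL7B shared 3.

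The strongest loop between hubs joined an anchor in TBX3, a T-box transcription factor, to the MED13L desert hub (chr12:116192001-116193000), which lies between both genes at 1080 kb from TBX3. MED13L itself is a subunit of the kinase module of Mediator. The H3K27ac contact of this loop was 79.6, 79.9, 68.6, 216 and 175. The values at 16 h and 72 h were higher than the other three. The log2 change against 0 m was 1.44 at 16 h (1.24 to 1.64, from 271 and 1017 read pairs) and 1.13 at 72 h (0.93 to 1.34). The H3K4me3 contact was 20.3, 19.1, 20.1, 31.5 and 19.2, highest at 16 h. The loop held 20.4% of the 16 h H3K27ac contact of the TBX3 hub and 28.6% of that of the MED13L hub.

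Another loop, of 640 kb between the IRX3 hub and the IRX5 promoter, both of the Iroquois homeobox cluster, had a contact of 9.99, 9.0, 7.05, 21.2 and 31.1. It too was highest at 16 h and 72 h, with a log2 change at 72 h of 1.64 (1.07 to 2.23). In contrast, the loop of 715 kb between a hub near POU5F1B and the MYC promoter had 20.9, 9.0, 16.7, 18.3 and 6.32. It was lowest at 30 m and 72 h, with log2 changes of −1.21 (−1.77 to −0.67) and −1.72 (−2.46 to −1.04), while the intervals at 4 h and 16 h included 0.

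The H3K4me3 loop set separated the hubs by their place. Promoter hubs had a median of 67 loops in it and other hubs 7, as the plot of both sets shows. In it 91 hubs had 50 loops or more, of which 81 were promoter hubs. A median of 48.5% of the loops of a promoter hub were also listed in the H3K4me3 set, and 6.45% of those of another hub. The promoters of LUZP2 and of MMP16, a membrane-type matrix metalloproteinase, reached 168 H3K4me3 loops.

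There were exceptions on both sides. The promoter hubs of ID2 and IRF2BP2 had 4 H3K4me3 loops each. Conversely, 10 hubs with no coding promoter had at least 50. Among them were a hub near SOX4 with 133 and one within 2500 bp of the start of PVT1, the noncoding RNA beside MYC, with 85. None of the 7 hubs with 0 H3K4me3 loops lay on a promoter, and each was named for a gene some distance away, such as the adhesion protein gene CDH9.

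**Figure D3:**
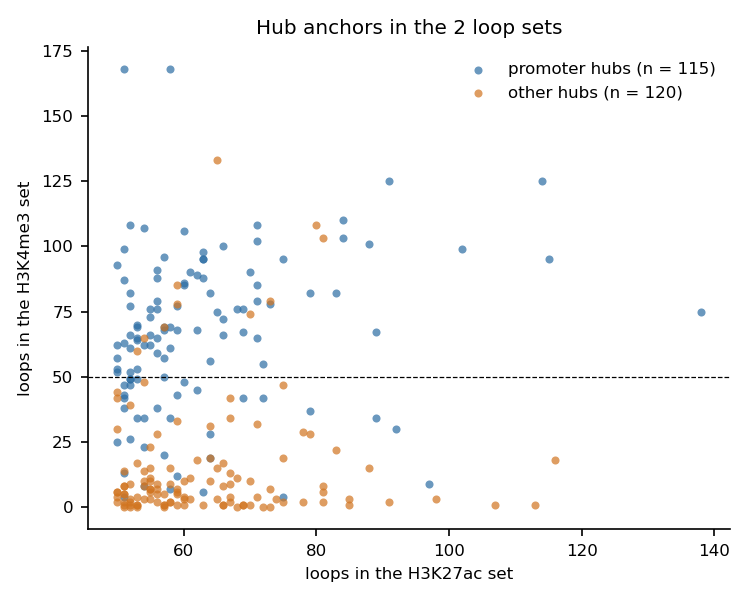
Loops of each hub anchor in the H3K27ac set (x axis) and in the H3K4me3 set (y axis), for 115 promoter hubs (blue) and 120 other hubs (orange), with a dashed line at 50 loops. Most promoter hubs lie above the other hubs, with medians of 67 and 7 H3K4me3 loops.

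Over time, the H3K27ac contact summed over hub loops was highest at 16 h, and the 30 m value depended on where a hub lay. The mean contact of the 14779 hub loops changed against 0 m by −0.02, −0.13, 0.35 and 0.21 on the log2 scale, in the order of the 4 treated times. Loops with no hub changed by 0.08, 0.09, 0.29 and 0.19, and loops of anchors with 20 to 49 loops by 0.14, −0.03, 0.39 and 0.25. These are means over loops of unlike length, and values by length are given further on.

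The deposited scaling sets part of these values. With every table scaled to the same total, all log2 changes of H3K27ac are lower, by 0.09, 0.07, 0.25 and 0.17 in the order of the treated times. Those of H3K4me3 are lower by 0.02, 0.22 and 0.14 at the first 3 of these times and higher by 0.13 at the last.

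Promoter hubs and hubs far from genes took opposite directions at 30 m. The mean H3K27ac contact of promoter hub loops was 2.08, 2.44, 1.91, 2.92 and 2.71. That of the 60 hubs over 100 kb from a coding start was 2.30, 1.30, 1.96, 2.23 and 1.88. The log2 change at 30 m was 0.23 (0.22 to 0.25) for the former and −0.82 (−0.84 to −0.80) for the latter, and it kept these directions with equal totals. The other hubs within 100 kb had 0.09 at 30 m and 0.43 at 16 h, close to promoter hubs at 16 h (0.49).

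The change far from genes was also present in anchors with fewer loops. At 30 m the median log2 change of a hub over 100 kb from a coding start was −0.80, and that of the 730 such anchors with 20 to 49 loops was −0.52. At promoters the medians were 0.31 and 0.38. At 16 h they were 0.48 and 0.40 at promoters and −0.09 and 0.02 far from genes. At 4 h they were −0.11 and −0.025 at promoters and −0.25 and −0.15 far from genes. By medians the far anchors of both classes thus lay below the promoters at each treated time. The far hubs were lower than the far anchors with 20 to 49 loops at each of these times.

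**Figure D4:**
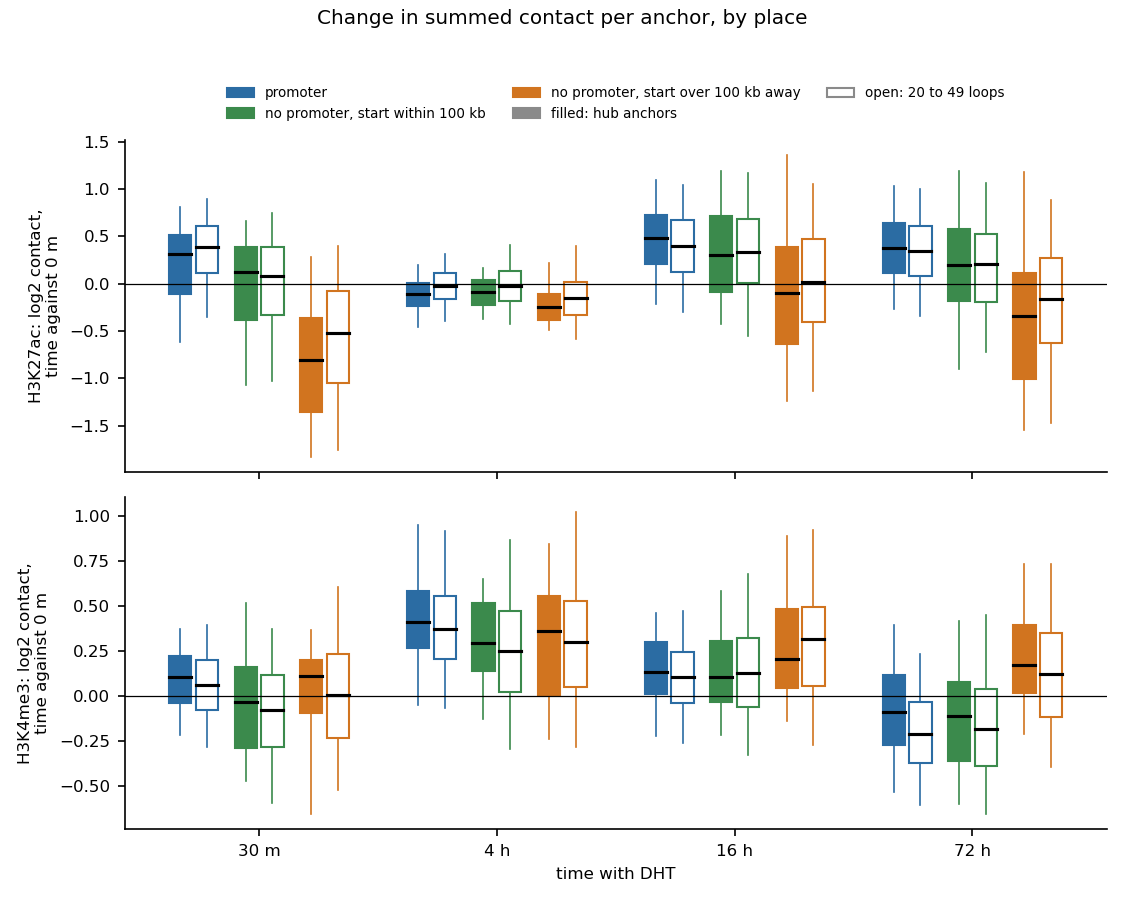
Log2 change in summed contact per anchor against 0 m (y axis) at each time (x axis) for H3K27ac (top) and H3K4me3 (bottom), for hub anchors (filled) and anchors with 20 to 49 loops (open), by place. Boxes span the quartiles, the line is the median and whiskers run from the 5th to the 95th percentile; at 30 m the H3K27ac median is −0.80 for hubs over 100 kb from a coding start and 0.31 for promoter hubs.

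Counts of hubs past 1.5-fold in summed H3K27ac contact followed the same division. They are set beside the share of all 28769 anchors with at least 50 read pairs on average that passed the same fold. At 30 m, 28 of 235 hubs (11.9%) were higher, against 18.9% of all anchors, and 58 (24.7%) were lower, against 10.5%. Of the 58 lower hubs, 50 lay away from promoters and 38 of these were over 100 kb from a coding start. Among anchors with 20 to 49 loops 16.7% were higher and 14.5% lower at 30 m, so the share of lower hubs was above that of this class too.

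At 4 h 1 hub (0.426%) was higher, against 7.15% of all anchors and 1.18% of those with 20 to 49 loops, and 2 (0.851%) were lower, against 1.61% of either. The first lay 449 kb from the start of RPS24, a ribosomal protein gene, and the others were the promoter of ATP2B1, a plasma membrane calcium pump, and a hub 239 kb from it. By these counts the 4 h table was closer to 0 m than the 30 m, 16 h or 72 h table was. Whether this comes from the cells or from the libraries was not tested.

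At 16 h, 67 hubs (28.5%) were higher, against 33.7%, and 22 (9.36%) were lower, against 6.18%. Anchors with 20 to 49 loops gave 29.9% and 5.39%. With equal totals the split of hubs was 35 higher and 34 lower, and no share of all anchors is given at that scaling. The higher hubs comprised 41 on promoters and 26 elsewhere, whereas 21 of the 22 lower hubs lay away from promoters and the MMP16 promoter was the remaining one. At 72 h, 54 hubs (23.0%) were higher, against 27.2%, and 33 (14.0%) were lower, against 8.26%, with 32 of the 33 away from promoters. Anchors with 20 to 49 loops gave 22.4% and 8.61%. With equal totals the counts of hubs were 36 and 40 at 72 h, and 15 and 64 at 30 m, again with no share of all anchors to set beside them.

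On the deposited scaling the time of the highest H3K27ac contact was 16 h in 105 hubs (44.7%) and 0 m in 54 (23.0%), of which 42 lay away from promoters. Over the 28769 anchors these shares were 37.4% and 11.0%, and over those with 20 to 49 loops 39.8% and 15.1%. With equal totals the order turned, with 64 hubs (27.2%) highest at 16 h and 73 (31.1%) at 0 m, beside 24.7% and 18.0% of the 28769 anchors.

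Length entered as well, and the values that follow are on the deposited scaling. At 16 h, hub loops under 20 kb changed by 0.96, those of 20 to 100 kb by 0.21, those of 100 to 500 kb by 0.01 and those of 500 kb or more by −0.03. Loops with no hub changed by 0.57, 0.063, −0.074 and −0.17 in the same classes, lower than hub loops in each of the 4. Loops of anchors with 20 to 49 loops changed by 0.82, 0.20, 0.038 and −0.11. Against these, hub loops were higher under 20 kb and from 500 kb on and lower from 100 to 500 kb, and from 20 to 100 kb the intervals overlapped. At 30 m hub loops changed by 0.36, 0.035, −0.22 and −0.41, loops with no hub by 0.25, 0.029, −0.16 and −0.38, and loops of anchors with 20 to 49 loops by 0.38, 0.13, −0.084 and −0.33. The highest change of hubs at 16 h thus lay in their shortest loops. With equal totals hub loops of 100 to 500 kb and of 500 kb or more were lower at 16 h than at 0 m, with −0.24 and −0.27. Hub loops to a promoter, a mixture of lengths, changed by 0.40 at 30 m and 0.63 at 16 h.

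Single hubs moved much more than the average. The 6 hubs with the largest rise and the 6 with the largest fall at 16 h are named, among hubs with at least 200 read pairs on average. They were picked for this change, so their values are a description. Of the 6 with the largest rise, 3 lay in the gap between KLF4 and ACTL7B and were joined to each other by loops.

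The hub 585 kb from the start of KLF4 (chr9:110837001-110838000, 51 loops) had a summed H3K27ac contact of 40.6, 86.9, 38.2, 165 and 164. Its log2 change at 16 h was 2.02 (1.76 to 2.30). The hub named for ACTL7B, an actin-like gene, had 54.9, 59.6, 42.7, 152 and 158, and that 250 kb from KLF4 had 58.2, 74.7, 58.3, 148 and 131. All 3 were high at 16 h and 72 h. At 4 h the intervals of the 2 hubs named for KLF4 included 0, and the ACTL7B hub was lower with −0.36 (−0.66 to −0.07). At 30 m both KLF4 hubs were higher, with 1.10 (0.82 to 1.38) and 0.36 (0.11 to 0.61), and the interval of the ACTL7B hub included 0. Their H3K4me3 contact stayed at or below 9.89 at every time.

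The TBX3 hub (chr12:115112001-115113000) had the highest 16 h contact of all hubs. Its values were 405, 544, 410, 1059 and 924, with a log2 change at 16 h of 1.39 (1.30 to 1.47). Its strongest loop, of 5 kb to an anchor in the same gene, held 64.1% of the 16 h contact. Without loops under 20 kb the change was 0.84. The MED13L desert hub had 346, 294, 332, 755 and 735, a change at 16 h of 1.13 (1.03 to 1.22) that became 0.73 without short loops.

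An intronic hub of SMYD3, a lysine methyltransferase, had 36.7, 36.3, 31.4, 108 and 91.0, with a log2 change at 16 h of 1.55 (1.27 to 1.85). The SETBP1 promoter, of a protein that binds SET, had 40.0, 55.2, 49.1, 97.4 and 87.4, with 1.29 (1.01 to 1.57). Both remained higher at 16 h without loops under 20 kb, with 1.45 and 1.10.

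The 6 hubs with the largest fall lay in introns of long genes or in deserts and had 0 to 2 H3K4me3 loops. The MMP16 promoter hub, with 168 H3K4me3 loops, had a 16 h change of −1.14 (−1.47 to −0.81), which is lower than those of SLC16A7 and CDH9, but it had under 200 read pairs on average and so was not among them. The NAALADL2 intron hub (chr3:175207001-175208000) had the highest 0 m contact of all hubs, with 582, 203, 444, 247 and 194. The log2 change was −1.52 (−1.63 to −1.41) at 30 m and −1.24 (−1.34 to −1.13) at 16 h. It was high at 0 m and 4 h and low at the other times. All 6 hubs of its group lay below their 0 m contact by the counting interval at 30 m and 72 h, and 5 of the 6 at 16 h.

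The SLC16A7 desert hub had 196, 75.4, 157, 94.5 and 67.6. The CDH9 desert hub had 148, 38.3, 99.8, 78.1 and 68.7. Of 3 intronic hubs of CNBD1, a gene with a cyclic nucleotide-binding domain, that with the most loops had 276, 84.0, 201, 103 and 90.3. In each of these the order was the same as in NAALADL2 in that 0 m was highest and 4 h next. Without loops under 20 kb the 16 h change of NAALADL2 was −1.23 and those of the 3 CNBD1 hubs −1.43 to −1.76, so these lower values were present in long loops too. Their H3K4me3 contact did not exceed 6.87 at any time.

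**Figure D5:**
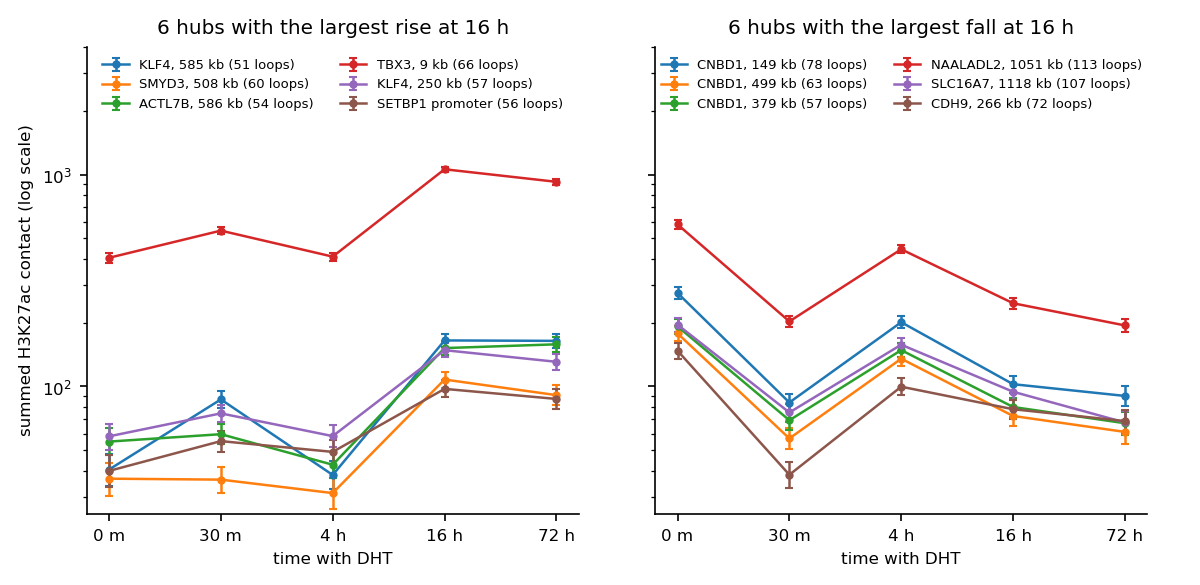
Summed H3K27ac contact (y axis, log scale) over time (x axis) for the 6 hubs with the largest rise (left) and the 6 with the largest fall at 16 h (right), each named by gene and distance from its start, with exact 95% Poisson intervals on read pairs as bars. The left hubs are highest at 16 h or 72 h, with TBX3 at 1059, and the right hubs are highest at 0 m and next at 4 h.

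Most of the hubs with the most loops changed less than these. The ZNF608 promoter hub had 242, 130, 161, 252 and 258, so it was low at 30 m and 4 h. On the deposited scaling it was back at the 0 m level at 16 h (0.06, −0.07 to 0.19). With equal totals, where every 16 h change of H3K27ac is lower by 0.25, it was below 0 m. The other 3 hubs of its group were also lower at 30 m, and the group spanned log2 changes of −1.12 to −0.89. The CITED2 promoter had 193, 179, 152, 279 and 276. Its 16 h change of 0.53 became 0.28 without loops under 20 kb.

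The PPP3CA promoter had 179, 162, 166, 211 and 190, and the SEPTIN9 hub had 219, 313, 229, 292 and 284. Their 16 h changes of 0.24 and 0.42 were 0.08 (−0.09 to 0.24) and 0.22 (0.06 to 0.37) without loops under 20 kb, so that the first can then not be told from 0. The 0.24 of PPP3CA is also no larger than the 0.25 by which equal totals lower a 16 h change. Of the remaining promoter hubs, IRX5 had 205, 174, 147, 307 and 293, and ZMYND8 had 230, 318, 241, 473 and 399. ZMYND8 thus had the highest 16 h change among the 12 hubs with the most loops, 1.04 (0.92 to 1.16), or 0.79 without short loops. The BRD2 and HLA-DMA hub had 264, 257, 244, 202 and 200, and was lower at 16 h with −0.39 (−0.52 to −0.25).

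The MYC promoter (chr8:128747001-128748000) of the growth regulator had 252, 176, 191, 228 and 171. Its highest value was that of 0 m, and the log2 change was −0.52 at 30 m, −0.14 (−0.27 to −0.01) at 16 h and −0.56 at 72 h. The 16 h change was −0.36 (−0.51 to −0.21) without loops under 20 kb. The H3K4me3 contact of the same loops was 179, 215, 261, 233 and 197, lowest at 0 m. The intergenic hub 499 kb from ZPLD1 had 158, 104, 188, 199 and 115, and that 487 kb from ZNF608 had 240, 110, 172, 218 and 199. Without loops under 20 kb their 16 h changes of 0.34 and −0.14 became −0.05 (−0.23 to 0.12) and −0.54 (−0.70 to −0.39), so the direction of the first rested on short loops.

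H3K4me3 contact of the hub loops was highest at 4 h. Over all hub loops the log2 change was 0.08, 0.39, 0.13 and −0.11 in the order of the treated times, beside 0.01, 0.24, 0.14 and −0.17 over loops with no hub. With equal totals the 4 h value was 0.17, and those at 16 h and 72 h were near 0. The highest contact was that of 4 h in 144 of 235 hubs (61.3%), with no minimum of read pairs. It was that of 4 h in 49.4% of the 22071 anchors with at least 50 read pairs on average. Among those with 20 to 49 loops it was so in 66.0%. With equal totals the highest contact was that of 4 h in 91 hubs (38.7%), beside 28.6% and 41.7%. Since 193 hubs met that minimum, the shares of hubs and of anchors rest on unlike filters. The 4 h library was by far the deepest, with 10675614 read pairs, and the part of depth in these values was not tested.

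For the counts of H3K4me3, 193 hubs and 22071 anchors had at least 50 read pairs on average. Of the 193, 1 hub (0.518%) was higher at 30 m, against 3.75% of all anchors, and 2 (1.04%) were lower, against 4.41%. At 4 h 39 (20.2%) were higher, against 18.7%, and 0 were lower, against 2.22%. At 16 h 8 (4.15%) were higher, against 7.37%, and 0 were lower, against 0.924%. At 72 h 5 (2.59%) were higher, against 1.46%, and 8 (4.15%) were lower, against 11.4%. Without that minimum, 25 of 235 hubs (10.6%) were higher at 16 h and 27 (11.5%) at 72 h, against 23.7% and 21.4% of all anchors with a read pair at 0 m, and 9 (3.83%) were lower at 72 h, against 23.1%. Most of the higher hubs in these counts thus had few read pairs.

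The hubs with the largest H3K4me3 changes at 16 h were taken from the 146 hubs with at least 200 H3K4me3 read pairs on average. Of the hubs named for their H3K27ac change, TBX3 and SETBP1 met that minimum, so the H3K4me3 lists could share no other hub with those of H3K27ac. The TBX3 hub was in both and had an H3K4me3 contact of 138, 157, 201, 222 and 139, with 0.69 (0.54 to 0.85) at 16 h, which was 0.40 (0.13 to 0.68) without loops under 20 kb. The MED13L desert hub had 60.9, 62.5, 68.0, 96.5 and 72.8. Both hubs were highest at 16 h in this mark as in H3K27ac. An intronic hub of PIK3R1, a regulatory subunit of PI3-kinase, had 40.0 at 0 m and 60.9 at 16 h.

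The other 3 with the largest rise lay on promoters and were highest at 4 h. The ZNF608 promoter had 32.2, 31.4, 77.7, 46.4 and 42.1, and its change at 4 h, 1.27 (0.99 to 1.57), stood beside an H3K27ac change of −0.58 at that time. The promoter of GOLPH3, a Golgi protein, had 107 at 0 m, 205 at 4 h and 153 at 16 h. The promoter of FECH, which inserts iron into heme, had 64.3, 99.7 and 92.2 at these times.

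The 6 largest falls of H3K4me3 at 16 h were small, between −0.38 and −0.25, and that of PIEZO1 was −0.26 (−0.64 to 0.12) without loops under 20 kb. They were a hub in the HOXC cluster of homeobox genes (84.0 at 0 m and 64.4 at 16 h), an intronic hub of the ion channel gene PIEZO1, the shared promoter of NME3, EME2 and MRPS34 (324 and 259), the promoter of MNT, a partner of MAX that represses MYC targets, the promoter of TAX1BP3 and EMC6, and a hub 20.9 kb from CSNK1D, a casein kinase. Some of these were higher in H3K27ac at 16 h, as TAX1BP3 and EMC6 with 1.24 and CSNK1D with 0.94. Without loops under 20 kb these H3K27ac changes were 0.75 (0.47 to 1.03) and 0.51 (0.31 to 0.72).

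Few genes of the lists had a hub at their promoter. Of all 20149 coding genes, 140 (0.695%) had one, and 1657 (8.22%) were reached, that is, had their promoter at the far end of a hub loop. Of 40 androgen-induced genes, 1 had a hub, CENPN, a centromere protein. Its contact was 82.6, 108, 75.4, 117 and 110 with a 16 h change of 0.50 (0.29 to 0.71). KLK3, TMPRSS2, FKBP5 and the other 36 had none. Hub loops reached 2 of the 40 promoters (5.0%), among them that of CAMKK2, a calcium-dependent kinase kinase.

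Of 19 luminal transcription factors, only XBP1, of the unfolded protein response, had a hub, with 148, 209, 139, 295 and 324. Its log2 change at 16 h was 1.0 (0.85 to 1.15), past 1.5-fold. Hub loops reached 4 of the 19 (21.1%), beside 8.22% of all genes. These were FOXA1, the pioneer factor of these cells, from the SEC23A hub, GRHL2, an epithelial factor, from the YWHAZ hub, CREB3L4 from the EFNA1 hub, and XBP1 itself from the promoter hub of EWSR1 and RHBDD3 at 465 kb. The share was the same for the immediate early genes. Of 12 androgen-repressed genes 0 had a hub and 1 (8.33%) was reached.

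Of 19 immediate early genes, JUN and MYC had one, and 4 (21.1%) were reached, which were JUN, MYC, EGR1 and KLF10. JUN had 88.2, 81.2, 92.5, 96.2 and 119, with a 16 h change of 0.13 (−0.09 to 0.34) that cannot be told from 0. Of 11 architectural genes, STAG1, a cohesin subunit, had a hub with 61.4, 97.2, 53.0, 121 and 113, a 16 h change of 0.98 (0.75 to 1.22). Hub loops reached 1 of the 11 (9.09%). Of 18 genes of the polymerase II machinery 0 had a hub, although MED13L, EP300 and NCOA3 (16.7%) were reached by hub loops. Of 79 genes of ribosomal proteins 0 had a hub and 14 (17.7%) were reached. Of the 5 genes of the lists with a hub, 2 were past 1.5-fold higher at 16 h and 0 were past it lower, beside 33.7% and 6.18% of all anchors.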

How the data were processed

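LNCaP HiChIP was made for H3K27ac (10 samples) and H3K4me3 (5 samples) at 5 time points. Per the labels and methods, the authors trimmed reads with Trim Galore 0.5.0, aligned them to hg19 and filtered them with HiC-Pro 3.1.0, which uses Bowtie2, and called loops with FitHiChIP in 5 kb bins on the merged reads of all times of a mark. Contact signal was read by the authors from Cooler maps and TMM-scaled, within a mark, over the times before it was deposited. Each of the 10 tables lists 574817 rows, first 296326 loops of H3K27ac and then 278491 of H3K4me3. Tables were matched to a mark and time by name. They carry no replicate number, and whether both H3K27ac replicates entered a value is not given in the sources used here.

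All values (100%) were, within 0.01 read pairs, multiples of a table's smallest step (0.0792 to 0.342), taken as 1 read pair, and read pairs were recovered by division. With 1 value per time point no count test could be run, as the design foresaw. Log2 changes compare summed or mean contact with 0 m, with exact conditional binomial 95% intervals on read pairs, levels have exact Poisson and shares exact Clopper-Pearson intervals. These cover counting error only, since each loop has 1 value per mark and time. Read pairs also carry no molecular identifiers. The median loop of a hub had 3 to 5 read pairs per H3K27ac table and 1 to 5 per H3K4me3 table, so only sums over loops are read, and single loops with an interval.

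Promoters were 2500 bp on either side of coding gene starts in Gencode 44 on GRCh37, the build of the tables, and sequences came from the GRCh37 genome. Named hubs are the 12 with the most loops, the 6 with the largest rise and fall per mark at 16 h among hubs with at least 200 read pairs on average, and hubs on the promoters of the gene lists. A hub off promoters is named by the nearest coding gene start. Members and lists were chosen with earlier results of these data known. Alternatives were equal totals, loops of at least 20 kb, at least 75 loops, the median over hubs and other promoter definitions. The methods were tested on simulated data. Python 3.11.15, numpy 2.4.6, pandas 2.3.3, scipy 1.17.1 and matplotlib 3.10.9 were used.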

Additional observations from a re-analysis of the deposited data

How the results depend on the processing

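Of 70 values under an alternative, 25 moved by less than the spread allowed, 40 moved further and 5 changed sign. The number of hubs was 235 under both alternatives. The promoter share was 31.1% with 1000 bp on either side of a start and 59.6% with the starts of all annotated genes. With equal totals the H3K27ac log2 change of hub loops was −0.11, −0.20, 0.10 and 0.036 at 30 m, 4 h, 16 h and 72 h, and the H3K4me3 change was 0.059, 0.17, −0.0056 and 0.020, so the last pair changed sign. In loops of at least 20 kb the H3K27ac change was −0.18, −0.20, 0.066 and −0.020, the last of which changed sign, and the H3K4me3 change was 0.35, 0.11 and −0.022 at 4 h, 16 h and 72 h. The median over hubs was 0.0095 (a change of sign), −0.16 and 0.24 for H3K27ac at 30 m, 4 h and 72 h, and 0.41, 0.19 and −0.011 for H3K4me3 at 4 h, 16 h and 72 h. With at least 75 loops the H3K27ac change was −0.24, −0.19, 0.25 and 0.12, and the H3K4me3 change was 0.18 at 16 h and 0.018 at 72 h, again a change of sign.

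Counts past 1.5-fold, here over all 235 hubs, moved with equal totals to 15 higher at 30 m, 6 lower at 4 h, and 35 higher and 34 lower at 16 h for H3K27ac. For H3K4me3 they moved to 25 higher at 4 h (61 as deposited), 2 lower at 4 h, 2 lower at 16 h and 0 lower at 72 h (9 as deposited). In loops of at least 20 kb the H3K27ac counts moved to 17 higher at 30 m, 4 lower at 4 h, 33 higher at 16 h and 35 higher at 72 h, and the H3K4me3 counts to 12 lower at 30 m, 3 lower at 4 h, 0 lower at 16 h and 2 lower at 72 h. No share of all anchors is given under these settings, so the counts describe the hubs only. The cause of these shifts was not tested beyond what each setting changes. No paired analysis was possible because the tables carry no replicate number and give a single value for each loop and time. For the same reason no replicate could be left out. Depth limits single loops: 40.8% of hub loops had 0 read pairs of H3K4me3 at 0 m, and 5.94% had 0 of H3K27ac.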

Other observations

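The YWHAZ hub, which had 108 loops in the H3K4me3 set though it lay on no coding promoter, was the hub from which GRHL2 and KLF10 were reached. Hubs with at most 5 H3K4me3 loops numbered 56, of which 54 lay away from promoters. Their mean H3K27ac contact was 2.32, 1.52, 2.03, 2.42 and 2.02 in the order of the times, and that of the 179 hubs with more H3K4me3 loops was 2.24, 2.44, 2.07, 3.03 and 2.80. The H3K27ac 4 h value of the first group lay nearer to that of 0 m than to that of 30 m. The cause was not tested.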
